A study of Mus musculus with 24 samples.

Results

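The genes described here code for sodium, calcium and pacemaker channels of the heart. They are Scn4b, an auxiliary beta subunit of sodium channels, Cacna1c and Cacna1s, pore subunits of L-type calcium channels, Cacnb2, a beta subunit of calcium channels, Cacna1g and Cacna1h, pore subunits of T-type calcium channels, and Hcn2 and Hcn4, pore subunits of the pacemaker channel. They were chosen by name, and all 8 were found among the 23998 genes of the deposited polyA table. All 8 also passed the filter for testing, a mean of at least 1 FPKM over the libraries, together with 12980 genes in all. FPKM is the number of sequenced fragments scaled by transcript length and library size, so levels can be set side by side between genes.

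The RNA came from whole hearts of transgenic mice on a CD1 background, sampled at 4 months of age. By the sample labels all animals carry a human MYL2 transgene for the regulatory light chain of myosin, called RLC-47K L6 in the labels of every sample, and the genotype was taken from the sample names, which give a mutant and a wild-type form. The sources used here do not name the promoter that drives the transgene. The first group held 4 mutant hearts labelled with an AAV9 virus that carries the H1-M7.8L shRNA and a Cerulean reporter driven by the RSV promoter (replicates 5 to 8). The second held 3 mutant hearts with a control AAV9 virus without the shRNA (replicates 1 to 3), the third 3 untreated mutant hearts (replicates 9 to 11), and the fourth 3 wild-type hearts with the control virus (replicates 2 to 4). Virus was injected at 3 days of age through the jugular vein. Each library is 1 heart, and nothing in the labels gives the litters.

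In the heart, sodium channels carry the rapid upstroke of the action potential, and their beta subunits adjust gating and placement of the pore in the membrane. L-type calcium channels carry the calcium entry that triggers contraction, with Cacna1c as the pore of heart muscle and Cacna1s as the pore of skeletal muscle. T-type channels and the hyperpolarization-activated HCN channels are best known from the sinus node, where they take part in pacemaking, and are more abundant in fetal than in adult ventricular muscle.

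The libraries differed in scale and in their match to the labels. Their FPKM totals ran between 580948 and 1701500, and their median shift over 13875 genes above 0 in every library ran between -0.54 and 0.80 on the log2 scale, with the top value in shRNA replicate 8. Differences are therefore given as deposited and again after the FPKM of each library were scaled to remove its own shift (aligned). In shRNA replicates 5, 6 and 7 a row named hMyl2 held 229, 420 and 317 FPKM. In all 10 other libraries, shRNA replicate 8 included, this row was at 0, and a row named shRNA was at 0 in all 13. Six3 was at 60.6 FPKM in shRNA replicate 8, at 13.6 to 27.6 FPKM in the 6 mutant hearts without shRNA, and at 0.0913 FPKM or less in the other shRNA hearts and in wild type. The library labelled shRNA replicate 8 thus differs on both rows from the others with its label, so shRNA results are given with and without it. By the labels all animals carry a human MYL2 transgene, so hMyl2 at 0 in 10 libraries does not follow the labels either. The sources used here do not state what the hMyl2 row counts. By Ddx3y, a gene of the Y chromosome, shRNA replicates 5 to 7, untreated replicates 9 and 10 and wild-type replicates 2 and 3 were male and the other 6 libraries female, so all control-virus mutants were female. Wherever replicate 8 is left out, shRNA hearts against control-virus mutants are therefore males against females. Sex and shRNA label cannot be told apart there. The sources used here do not state read numbers, so counting error is unknown.

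Cacna1c and Cacnb2 were the most abundant of the 8 transcripts in every mutant group, while Scn4b joined them in wild type. In mutants labelled shRNA, Cacna1c averaged 100.3 ± 10.5 FPKM, Cacnb2 78.0 ± 17.8 FPKM, Scn4b 44.2 ± 24.8 FPKM and Hcn2 38.6 ± 6.66 FPKM (SD, n = 4 each), and the ranges of each neighbouring pair overlapped. In control-virus mutants Scn4b, with 13.4 ± 1.04 FPKM, came after Cacna1c with 52.2 ± 4.17 FPKM, Cacnb2 with 44.2 ± 5.87 FPKM and Hcn2 with 24.1 ± 3.68 FPKM (SD, n = 3 each). In untreated mutants Scn4b with 12.0 ± 4.79 FPKM, Hcn2 with 15.0 ± 3.91 FPKM and Cacna1g with 9.97 ± 3.01 FPKM overlapped in range (SD, n = 3 each). In wild type, Scn4b with 78.0 ± 16.9 FPKM, Cacna1c with 76.8 ± 6.82 FPKM and Cacnb2 with 70.5 ± 7.32 FPKM overlapped, and Hcn2 with 36.1 ± 7.67 FPKM, Cacna1g with 11.8 ± 1.61 FPKM, Cacna1s with 6.82 ± 0.742 FPKM, Hcn4 with 5.49 ± 0.439 FPKM and Cacna1h with 2.70 ± 2.15 FPKM followed without overlap between neighbours (SD, n = 3 each). In wild type Cacna1h lay below Cacna1s and Hcn4 without overlap, whereas in untreated mutants, with 3.34 ± 1.49 FPKM, it lay above Cacna1s with 1.14 ± 0.21 FPKM and Hcn4 with 0.917 ± 0.308 FPKM, also without overlap (SD, n = 3 each). The order of the levels therefore differed between groups in Scn4b and in Cacna1h, and the heart form Cacna1c stood above the skeletal muscle form Cacna1s in every library.

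**Figure D1:**
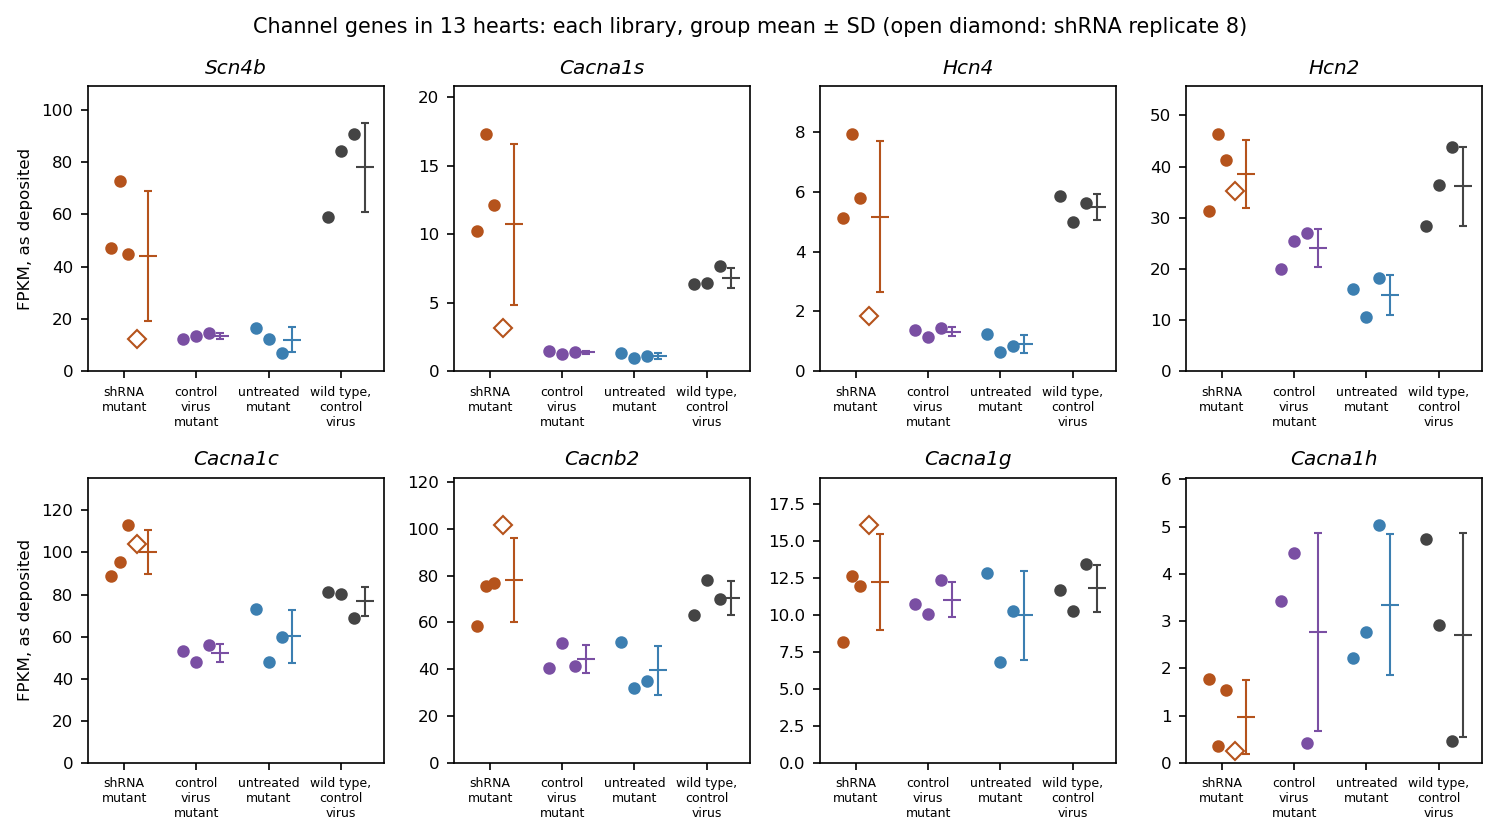
Deposited FPKM of the 8 channel genes (vertical axes, each from 0) in each of the 13 libraries, by group; points are libraries, the open diamond is shRNA replicate 8, and the horizontal mark with bars is the group mean ± SD. In Scn4b, Cacna1s and Hcn4 the 6 mutant hearts without shRNA lie below every wild-type heart, and shRNA replicate 8 lies below the other shRNA hearts.

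Scn4b, Cacna1s and Hcn4 were low in all mutant hearts without shRNA and moved together across libraries. To show the starting points of the 3 genes that share this pattern, the 250 bases before each RefSeq transcript start are printed here, 5′ to 3′ on the gene's own strand, the plus strand in all 3, in build GRCm38.p6. Capitals mark a match to the T-box core AGGTGT on either strand, the letters bound by Tbx3, Tbx5 and their relatives.
Scn4b, chr9:45138374-45138623: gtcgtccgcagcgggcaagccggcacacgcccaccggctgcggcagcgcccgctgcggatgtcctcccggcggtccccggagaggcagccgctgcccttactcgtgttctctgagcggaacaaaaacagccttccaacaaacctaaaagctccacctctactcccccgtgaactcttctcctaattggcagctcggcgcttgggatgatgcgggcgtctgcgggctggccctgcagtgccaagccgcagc
Cacna1s, chr1:136052561-136052810: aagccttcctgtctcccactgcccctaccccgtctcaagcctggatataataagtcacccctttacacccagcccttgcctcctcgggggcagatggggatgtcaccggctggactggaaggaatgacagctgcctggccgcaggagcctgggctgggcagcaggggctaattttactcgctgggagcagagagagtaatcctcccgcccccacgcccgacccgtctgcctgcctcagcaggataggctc
Hcn4, chr9:58822699-58822948: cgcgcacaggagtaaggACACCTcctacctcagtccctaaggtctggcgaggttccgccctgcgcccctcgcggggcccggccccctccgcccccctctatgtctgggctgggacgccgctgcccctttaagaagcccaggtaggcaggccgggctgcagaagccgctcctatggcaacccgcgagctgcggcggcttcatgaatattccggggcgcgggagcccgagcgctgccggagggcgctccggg
The T-box core stood in the Hcn4 window, on the minus strand, and in neither of the others. Of 32851 promoter windows of this length, 11.8% held it. The GATA letters AGATAA, found in 9.99% of windows, and the nuclear receptor letters AGGTCA, found in 14.0%, were in none of the 3. The E-box CANNTG, found in 66.2% of windows and not capitalised, occurred 2 times in the Cacna1s window and in neither of the others. The GC content of the windows was 66.0% for Scn4b, 62.4% for Cacna1s and 71.2% for Hcn4, beside a median of 52.4% over all windows. A match is a description of the letters and no evidence of binding.

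In mutants without shRNA each of these 3 genes lay below wild type with no overlap. Scn4b, whose product modulates sodium current, was at 12.4, 13.5 and 14.5 FPKM in control-virus mutants and at 16.6, 12.3 and 7.08 FPKM in untreated mutants, against 58.9, 84.1 and 91.0 FPKM in wild type. Cacna1s was at 1.48, 1.26 and 1.38 FPKM in control-virus mutants and at 1.36, 0.939 and 1.11 FPKM in untreated mutants, against 6.35, 6.44 and 7.68 FPKM in wild type. Hcn4, the main pacemaker channel of the sinus node, was at 1.38, 1.14 and 1.43 FPKM in control-virus mutants and at 1.25, 0.652 and 0.845 FPKM in untreated mutants, against 5.85, 5.00 and 5.62 FPKM in wild type. The 2 mutant groups overlapped each other in all 3 genes. Since whole hearts were used, fewer cells that express a gene and less of its RNA per cell cannot be told apart.

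By limma on log2(FPKM + 1), fitted over all 12980 genes and 4 groups, Scn4b was 5.39-fold lower in control-virus mutants than in wild type (log2 difference -2.43, SE 0.45, adjusted p = 0.00611) and 6.27-fold lower in untreated mutants (-2.65, SE 0.45, adjusted p = 0.00145). Cacna1s was 3.29-fold lower in control-virus mutants (-1.72, SE 0.38, adjusted p = 0.0128) and 3.66-fold lower in untreated mutants (-1.87, SE 0.38, adjusted p = 0.00332). Hcn4 was 2.80-fold lower in control-virus mutants (-1.49, SE 0.33, adjusted p = 0.0133) and 3.41-fold lower in untreated mutants (-1.77, SE 0.33, adjusted p = 0.00240). The pseudocount of 1 makes the folds of Cacna1s and Hcn4 smaller than the ratios of their FPKM. After alignment the log2 differences were -2.28, -1.62 and -1.39 for Scn4b, Cacna1s and Hcn4 in control-virus mutants and -2.29, -1.66 and -1.58 in untreated mutants, all past the threshold. With sex as a covariate the control-virus differences of Cacna1s (-1.34, adjusted p = 0.0956) and Hcn4 (-1.16, adjusted p = 0.108) missed it, and with sex as a covariate and shRNA replicate 8 left out both passed (Cacna1s -1.79, adjusted p = 8.24e-05, and Hcn4 -1.48, adjusted p = 0.000966). Both also missed it without control-virus replicate 1 (adjusted p = 0.0556 and 0.0575). Without wild-type replicate 4 Cacna1s missed it (adjusted p = 0.0515), and without wild-type replicate 2 so did Hcn4 (adjusted p = 0.0527).

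Within each sex the order was the same. Among females, Scn4b was at 7.08 to 14.5 FPKM in the 4 mutants without shRNA and at 91.0 FPKM in the 1 wild-type heart, Cacna1s at 1.11 to 1.48 FPKM against 7.68 FPKM, and Hcn4 at 0.845 to 1.43 FPKM against 5.62 FPKM. Among males, the 2 untreated mutants had 16.6 and 12.3 FPKM of Scn4b, against 58.9 and 84.1 FPKM in wild type. The wild-type heart of either sex was thus above every mutant heart of that sex without shRNA. No control-virus mutant was male, so that comparison has no male value.

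Of the 4 hearts labelled shRNA, 3 had high levels of the same 3 genes, and replicate 8 did not. Scn4b was at 47.1, 72.7, 44.7 and 12.2 FPKM in shRNA replicates 5, 6, 7 and 8. Cacna1s was at 10.2, 17.4, 12.2 and 3.17 FPKM, and Hcn4 at 5.12, 7.95, 5.78 and 1.84 FPKM in the same order. In replicates 5 to 7 all 3 genes lay above every mutant heart without shRNA. Replicate 8 lay inside the range of those hearts in Scn4b and above it in Cacna1s and Hcn4 as deposited. This library also had the top scale, and after alignment its Scn4b, at 7.0 aligned FPKM, lay below the 9.81 to 18.3 aligned FPKM of the mutants without shRNA, while its Hcn4, at 1.06 aligned FPKM, lay within their 0.946 to 1.81 and its Cacna1s, at 1.82, just above their 1.15 to 1.74. Against wild type, Scn4b in replicates 5 to 7 averaged 54.8 ± 15.5 FPKM, with an overlap, and 45.8 ± 8.73 aligned FPKM, below the wild-type 63.0 to 85.1. Cacna1s in replicates 5 to 7 averaged 13.3 ± 3.69 FPKM and Hcn4 6.28 ± 1.48 FPKM (SD, n = 3 each), against 6.82 ± 0.742 and 5.49 ± 0.439 FPKM in wild type. All 3 of these shRNA hearts were above every wild-type heart in Cacna1s, and overlapped wild type in Hcn4.

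Against control-virus mutants, the 4 shRNA libraries gave log2 differences of 1.41 (SE 0.42, adjusted p = 0.0167) for Scn4b, 2.12 (SE 0.36, adjusted p = 0.000811) for Cacna1s and 1.30 (SE 0.31, adjusted p = 0.00500) for Hcn4. After alignment Cacna1s passed (1.73, adjusted p = 0.0190), and Hcn4 (0.95, adjusted p = 0.0560) and Scn4b (0.92, adjusted p = 0.199) did not. Leaving out replicate 8 raised the differences to 1.92, 2.56 and 1.64 as deposited and to 1.55, 2.23 and 1.33 after alignment, all past the threshold. Those fits set male shRNA hearts against female control-virus mutants, so sex and shRNA label cannot be told apart in them. Scn4b missed it as deposited without control-virus replicate 1, control-virus replicate 3 or shRNA replicate 6 (adjusted p = 0.0629, 0.0529 and 0.0656). With sex as a covariate, Scn4b (0.72, adjusted p = 0.159) and Hcn4 (0.94, adjusted p = 0.0577) missed it too, and with that covariate and without replicate 8 both passed (1.64, adjusted p = 0.00430, and 1.63, adjusted p = 0.00183). Without replicate 8 the sex term rests on the untreated and wild-type hearts alone.

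Against untreated mutants the differences were 1.62 (SE 0.42, adjusted p = 0.00430) for Scn4b, 2.28 (SE 0.36, adjusted p = 0.000144) for Cacna1s and 1.58 (SE 0.31, adjusted p = 0.000645) for Hcn4. Aligned, they were 0.93 (adjusted p = 0.186), 1.77 (adjusted p = 0.0116) and 1.14 (adjusted p = 0.0255). Without replicate 8 the aligned differences were 1.56, 2.27 and 1.52, all past the threshold. Both comparisons share the shRNA libraries. Among males alone, Scn4b was at 44.7 to 72.7 FPKM in the 3 shRNA hearts and at 12.3 and 16.6 FPKM in the 2 untreated hearts. Against wild type none of the 3 genes passed with all 4 libraries, with log2 differences of -1.02 (adjusted p = 0.310) for Scn4b, 0.40 (adjusted p = 0.462) for Cacna1s and -0.19 (adjusted p = 0.675) for Hcn4. Without replicate 8 the aligned difference of Cacna1s was 0.63 (SE 0.13, adjusted p = 0.0176), higher in shRNA hearts, and that of Scn4b was -0.73 (SE 0.22, adjusted p = 0.0767). The aligned Hcn4 difference was then -0.04 (SE 0.16, adjusted p = 0.908).

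**Figure D2:**
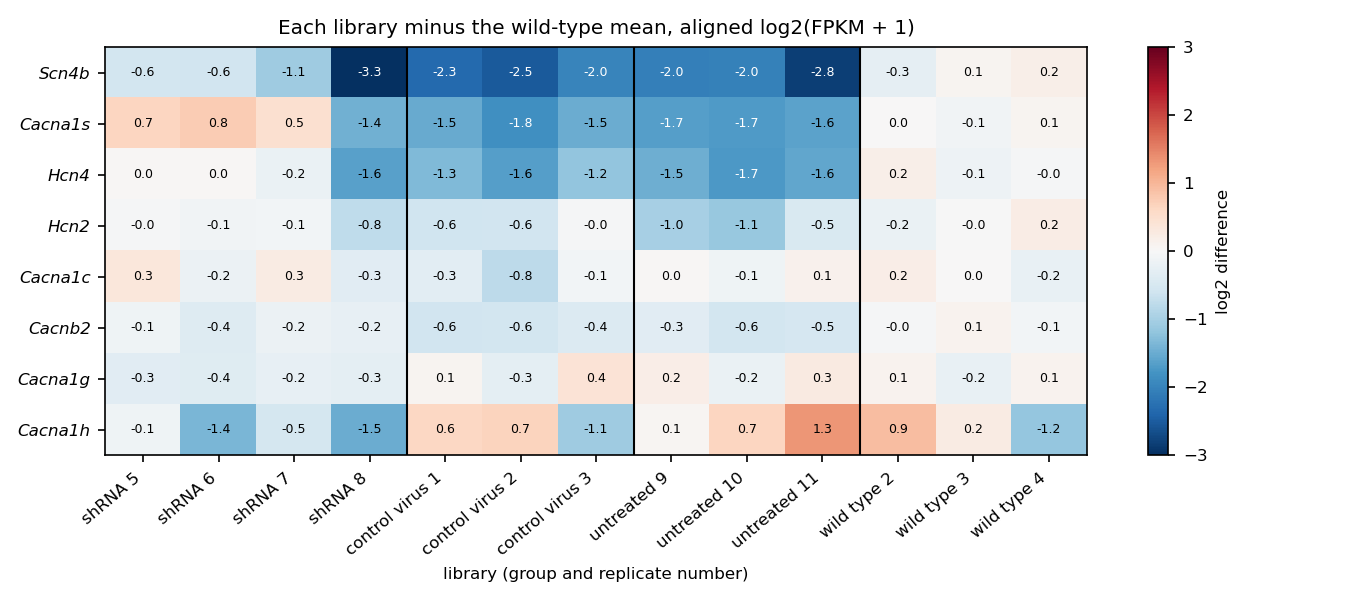
Aligned log2(FPKM + 1) of each channel gene in each library minus the wild-type mean of that gene (colour and printed value); columns are libraries in groups divided by black lines. In the top 3 rows shRNA replicate 8 resembles the mutant hearts without shRNA, while shRNA replicates 5 to 7 lie closer to wild type.

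Ratios within a library are free of its scale. They were chosen after the values had been seen. The ratio of Cacna1s to Cacna1c was 11.5, 18.2, 10.8 and 3.05% in shRNA replicates 5 to 8, 2.80, 2.64 and 2.46% in control-virus mutants and 1.86, 1.97 and 1.86% in untreated mutants, against 7.80, 8.04 and 11.1% in wild type. The ratio of Hcn4 to Hcn2 was 16.3, 17.1, 14.0 and 5.24% in shRNA replicates 5 to 8, 6.90, 4.48 and 5.31% in control-virus mutants and 7.78, 6.14 and 4.65% in untreated mutants, against 20.6, 13.8 and 12.9% in wild type. In both ratios every mutant heart without shRNA was below every wild-type heart, and shRNA replicate 8 lay below wild type too. The exact permutation p of each mutant group without shRNA against wild type was 0.1, two-sided, which is the smallest that groups of 3 can give. With all 4 shRNA libraries the exact permutation p against control-virus mutants was 0.0571 for Cacna1s to Cacna1c and 0.114 for Hcn4 to Hcn2, where 0.0286 is the smallest possible. The ratio of Cacnb2 to Cacna1c, the beta subunit to its pore, was 65.8 to 97.8% in shRNA hearts, 73.7 to 106.9% in control-virus mutants and 58.4 to 70.8% in untreated mutants, against 77.8 to 101.7% in wild type. Its ranges overlapped between groups except that untreated mutants lay below both groups with control virus.

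**Figure D3:**
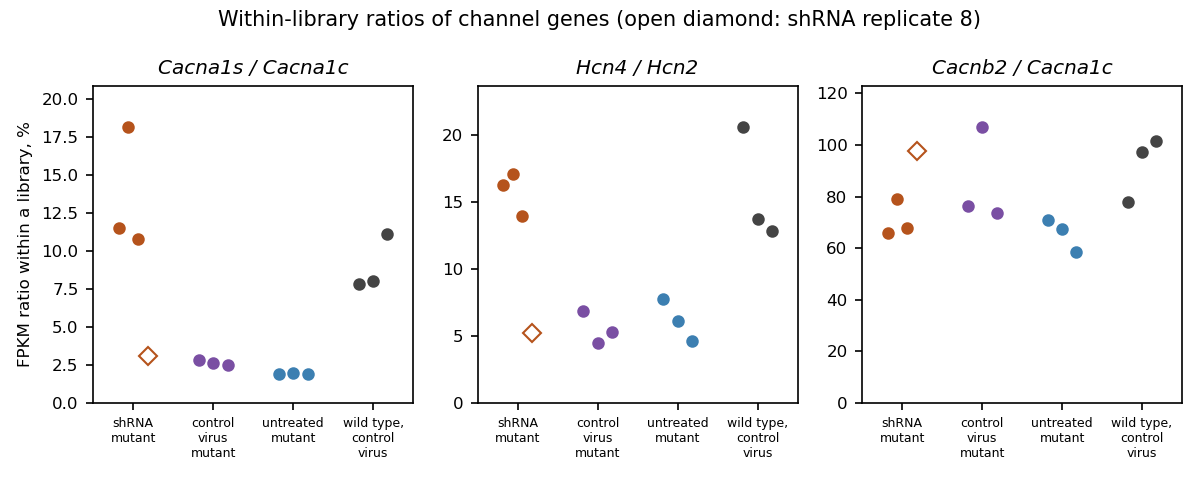
Ratio of 2 channel genes within each library, in percent of FPKM (vertical axes, from 0), by group; points are libraries and the open diamond is shRNA replicate 8. In the first 2 panels wild-type hearts lie above all mutant hearts without shRNA and above shRNA replicate 8, and in the last panel shRNA hearts overlap every other group.

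Hcn2, the pacemaker channel form of ventricular muscle, was low in untreated mutants. It was at 31.4, 46.5, 41.3 and 35.2 FPKM in shRNA replicates 5 to 8, at 20.0, 25.5 and 26.9 FPKM in control-virus mutants and at 16.1, 10.6 and 18.2 FPKM in untreated mutants, against 28.4, 36.3 and 43.7 FPKM in wild type. Every mutant heart without shRNA lay below every wild-type and every shRNA heart as deposited, and the control-virus mutants lay above the untreated ones. Hcn2 was 2.34-fold lower in untreated mutants than in wild type (log2 difference -1.23, SE 0.25, adjusted p = 0.00362; aligned -0.87, adjusted p = 0.0221). In control-virus mutants the difference from wild type was -0.55 (SE 0.25, adjusted p = 0.176). Against untreated mutants the shRNA hearts were 2.50-fold higher (1.32, SE 0.24, adjusted p = 0.000326; aligned 0.62, adjusted p = 0.0496). Against control-virus mutants they were 1.57-fold higher as deposited (0.65, SE 0.24, adjusted p = 0.0409) and did not pass after alignment (0.16, adjusted p = 0.617). That call was also lost when shRNA replicate 6 or 7, any 1 control-virus replicate or wild-type replicate 3 or 4 was left out (adjusted p = 0.0509 to 0.177).

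Cacna1c, the pore through which calcium enters ventricular muscle, was highest in hearts labelled shRNA as deposited. It was at 88.7, 95.7, 113.1 and 103.9 FPKM in shRNA replicates 5 to 8, at 52.9, 47.7 and 56.0 FPKM in control-virus mutants and at 72.9, 47.7 and 59.9 FPKM in untreated mutants, against 81.4, 80.1 and 69.0 FPKM in wild type. The shRNA hearts were above all 9 other hearts, but 3 of these 4 libraries also had log2 scale shifts above 0. As deposited, Cacna1c was 1.90-fold higher in shRNA hearts than in control-virus mutants (0.93, SE 0.20, adjusted p = 0.00293) and 1.67-fold higher than in untreated mutants (0.74, SE 0.20, adjusted p = 0.00604). After alignment these were 0.42 (adjusted p = 0.121) and 0.01 (SE 0.19, adjusted p = 0.971), and neither passed. Without replicate 8 the aligned difference from control-virus mutants was 0.54 (adjusted p = 0.0259), and that from untreated mutants 0.13 (adjusted p = 0.575). With sex as a covariate and without replicate 8 the call against control-virus mutants was lost (0.81, adjusted p = 0.130). Against wild type, Cacna1c did not pass in shRNA hearts (0.38, SE 0.20, adjusted p = 0.329), control-virus mutants (-0.55, SE 0.22, adjusted p = 0.117) or untreated mutants (-0.36, SE 0.22, adjusted p = 0.246). The aligned untreated difference was 0.01 (SE 0.21), of the other sign.

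Cacnb2, whose product carries the L-type pore to the membrane, was lower in mutants without shRNA than in wild type. It was at 58.3, 75.5, 76.7 and 101.6 FPKM in shRNA replicates 5 to 8, at 40.5, 51.0 and 41.2 FPKM in control-virus mutants and at 51.6, 32.1 and 34.9 FPKM in untreated mutants, against 63.3, 77.9 and 70.2 FPKM in wild type. All 6 mutant hearts without shRNA lay below all wild-type and all shRNA hearts. In untreated mutants it was 1.79-fold lower than in wild type (-0.84, SE 0.25, adjusted p = 0.0226; aligned -0.47, SE 0.10, adjusted p = 0.0124). In control-virus mutants it passed after alignment (-0.51, SE 0.10, adjusted p = 0.0100) and not as deposited (-0.66, SE 0.25, adjusted p = 0.0962). The untreated call was lost as deposited when untreated replicate 10 or 11 or wild-type replicate 3 or 4 was left out (adjusted p = 0.0776 to 0.122). Hearts labelled shRNA were 1.72-fold above control-virus mutants (0.79, SE 0.23, adjusted p = 0.0157) and 1.95-fold above untreated mutants (0.97, SE 0.23, adjusted p = 0.00260) as deposited. Aligned, these were 0.28 (adjusted p = 0.0516) and 0.24 (adjusted p = 0.0811), and without replicate 8 0.28 (adjusted p = 0.0329) and 0.24 (adjusted p = 0.0621). The call against control-virus mutants was lost as deposited without control-virus replicate 1 or 3 (adjusted p = 0.0731 and 0.0728), and with sex as a covariate and without shRNA replicate 8 (0.54, adjusted p = 0.346).

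Of the T-type pores, Cacna1g showed no difference that passed in any of the 6 comparisons. It was at 8.17, 12.6, 12.0 and 16.1 FPKM in shRNA replicates 5 to 8, at 10.7, 10.1 and 12.3 FPKM in control-virus mutants and at 12.8, 6.81 and 10.3 FPKM in untreated mutants, against 11.7, 10.2 and 13.4 FPKM in wild type. All groups overlapped as deposited. The aligned values of the 4 shRNA hearts lay close together at 8.82 to 9.56 aligned FPKM, below the 9.78 to 12.6 of wild type and the 9.89 to 14.2 of untreated mutants, and overlapped the 9.19 to 15.6 of control-virus mutants. The difference of shRNA hearts from control-virus mutants was 0.10 (SE 0.25, adjusted p = 0.750) as deposited and -0.37 (SE 0.17, adjusted p = 0.116) after alignment, so its sign depends on the scale. The same held for the difference from untreated mutants, 0.27 (SE 0.25, adjusted p = 0.354) as deposited and -0.41 (SE 0.17, adjusted p = 0.0833) after alignment.

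Cacna1h, the other T-type pore, had the lowest mean of the 8 genes over all 13 libraries, at 2.33 FPKM, but in both mutant groups without shRNA its mean was above those of Cacna1s and Hcn4. It was at 1.76, 0.354, 1.53 and 0.254 FPKM in shRNA replicates 5 to 8, at 3.42, 4.45 and 0.420 FPKM in control-virus mutants and at 2.21, 2.78 and 5.03 FPKM in untreated mutants, against 4.74, 2.92 and 0.456 FPKM in wild type. Control-virus mutants and wild-type hearts each held 1 low and 2 high values, and only the untreated mutants were all above the shRNA hearts. That difference was -1.17 (SE 0.49, adjusted p = 0.0495) as deposited, -1.55 (adjusted p = 0.0522) after alignment, and -0.98 (adjusted p = 0.0578) without replicate 8. It was also lost on leaving out control-virus replicate 1, shRNA replicate 6, any 1 untreated replicate or wild-type replicate 3 (adjusted p = 0.0548 to 0.197). No other comparison of Cacna1h passed. By gene start and end Cacna1h overlaps the gene Tpsg1 in the RefSeq annotation, Cacna1c overlaps Dcp1b and 4931430N09Rik, and Cacnb2 overlaps Gm13315. Whether their exons overlap was not examined. The sources used here do not say whether the libraries kept strand, so reads from a shared stretch may not be told apart.

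The counts of channel genes that passed are set here against the share of all 12980 genes that passed. In shRNA hearts against control-virus mutants 6 of 8 rose and 0 fell, where 35.0% of all genes passed. After alignment 1 rose (24.1% of all genes), without replicate 8 6 rose (39.4%), and with both changes 5 rose (48.1%). Against untreated mutants 6 rose and 1 fell (54.8% of all genes), after alignment 3 rose (29.1%), without replicate 8 6 rose (52.9%), and with both 4 rose (49.4%). These backgrounds are high, so a passing gene is common among all genes here. The direction of all calls depended on the scale: 4330 of 4545 genes that passed against control-virus mutants were higher as deposited, and 1547 of 3126 after alignment. Against untreated mutants these were 6956 of 7113 and 2081 of 3777. Against wild type none of the 8 passed in shRNA hearts (0.108% of all genes), also after alignment (0.0847%) and without replicate 8 (1.68%), and with both changes 1 rose (5.66%). At an unadjusted limma p under 0.05, 1 of the 8 and 2026 of all genes passed in that comparison as deposited.

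In control-virus mutants against wild type 0 rose and 3 fell, where 9.50% of all genes passed, and after alignment 4 fell (24.3%). In untreated mutants against wild type 5 fell and 0 rose (20.7% of all genes), and 5 fell after alignment (25.8%). Of the genes that passed, 279 of 1233 were higher in control-virus mutants as deposited and 1634 of 3150 after alignment, and in untreated mutants 200 of 2690 and 1558 of 3355. Between control-virus and untreated mutants 0 of 8 passed, where 0% of all genes passed on either scale. At an unadjusted limma p under 0.05 there were 1 of the 8 channel genes, Hcn2, and 572 of all genes. The median log2 difference of the 8 genes in the aligned fit was -0.46 for control-virus mutants and -0.67 for untreated mutants against wild type, beside -0.0056 and 0.0089 for all genes. For shRNA hearts it was 0.35 against control-virus mutants, 0.43 against untreated mutants and -0.28 against wild type, beside 0.0046, -0.0015 and 0.012 for all genes. These comparisons share libraries with each other.

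**Figure D4:**
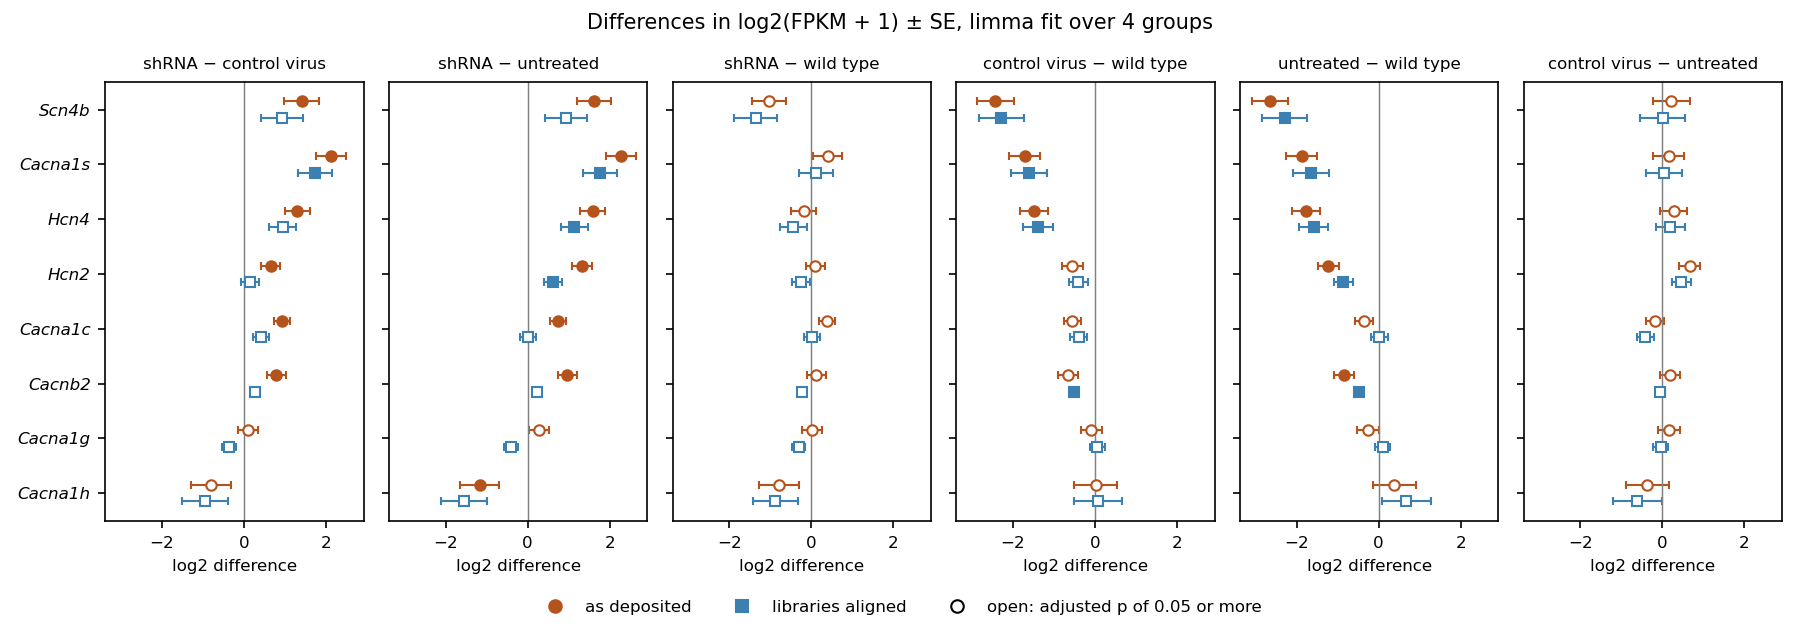
Differences in log2(FPKM + 1) with standard errors from limma (horizontal axes) for the 8 channel genes in the 6 comparisons; circles are values as deposited, squares are aligned values, and open symbols did not pass. Scn4b, Cacna1s and Hcn4 lie left of 0 by 1.39 to 2.65 in both mutant groups without shRNA against wild type.

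Other sodium channel subunits held a second gene with the pattern of Scn4b. Of 13 listed genes 6 were tested, and Scn4a, the pore of skeletal muscle, was at 11.0, 27.1, 16.9 and 1.51 FPKM in shRNA replicates 5 to 8, at 1.71, 2.80 and 2.83 FPKM in control-virus mutants and at 6.24, 2.92 and 1.29 FPKM in untreated mutants, against 16.1, 19.5 and 22.9 FPKM in wild type. It was 5.97-fold lower in control-virus mutants (-2.58, SE 0.60, adjusted p = 0.0152) and 5.06-fold lower in untreated mutants (-2.34, SE 0.60, adjusted p = 0.0119) than in wild type. In all, 3 of the 6 rose and 0 fell in shRNA hearts against control-virus mutants, and likewise against untreated mutants, with Scn4a and Scn10a among them. After alignment 0 rose and 1 fell against control-virus mutants, and 2 rose and 1 fell against untreated mutants. Of all genes, 35.0% passed against control-virus mutants (after alignment 24.1%) and 54.8% against untreated mutants (after alignment 29.1%). Scn10a was at 1.72 to 2.29 FPKM in shRNA hearts and at 1.05 to 1.51 FPKM in wild type. In control-virus mutants it was at 0.736 to 1.00 FPKM, and in untreated mutants at 0.413 to 0.550 FPKM. It passed the filter of a mean of at least 1 FPKM only through the shRNA hearts, so its shRNA differences are no test. Against wild type 1 of the 6 fell in control-virus mutants and 2 fell in untreated mutants, on either scale, and none passed between shRNA hearts and wild type with all libraries. The share of all genes that passed against wild type was 9.50% in control-virus mutants (after alignment 24.3%) and 20.7% in untreated mutants (after alignment 25.8%).

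Other calcium channel subunits mostly did not follow Cacna1s. Of 21 listed genes 8 were tested. Cacna2d3, an alpha2delta subunit, was at 0.0599 to 0.637 FPKM in shRNA hearts, 1.14 to 2.46 FPKM in control-virus mutants and 1.74 to 3.23 FPKM in untreated mutants, against 0.566 to 1.05 FPKM in wild type. Its log2 difference was -1.20 in shRNA hearts against control-virus mutants, -1.43 against untreated mutants, and 1.00 in untreated mutants against wild type. Cacna2d3 passed the filter of a mean of at least 1 FPKM only through the mutant hearts without shRNA. Differences of those hearts from the others are therefore no test in this gene. Cacng6, a gamma subunit of muscle, was at 7.23, 12.6 and 3.85 FPKM in shRNA replicates 5 to 7 and listed at 0 in replicate 8, listed at 0 in 5 of the 6 mutant hearts without shRNA and at 0.281 FPKM in the other, and at 0.357 to 2.05 FPKM in wild type. Its 3 values in shRNA replicates 5 to 7 were the highest of the 13, and it passed the filter of a mean of at least 1 FPKM only through them, so its differences in the shRNA comparisons are no test. In shRNA hearts 2 rose and 1 fell against control-virus mutants (after alignment 1 and 2), and 2 rose and 1 fell against untreated mutants (after alignment 1 and 2). Cacng6 is counted among those that rose and Cacna2d3 among those that fell. The share of all genes was 35.0% against control-virus mutants (after alignment 24.1%) and 54.8% against untreated mutants (after alignment 29.1%). In mutants against wild type 0 passed with control virus (after alignment 3 rose), and 1 rose and 1 fell untreated (after alignment 1 rose). The gene that rose untreated was Cacna2d3. There 9.50% of all genes passed with control virus (after alignment 24.3%) and 20.7% untreated (after alignment 25.8%). The median log2 difference of the 8 in untreated mutants against wild type was -0.048, beside -0.33 for all genes. The other pacemaker channel genes listed were below the filter and were not tested.

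Partners and regulators of these channels moved in several directions. Of 23 listed genes 19 were tested. Fgf13, which binds sodium channel pores, was at 83.6 to 145.0 FPKM in shRNA hearts, 35.2 to 56.2 FPKM in control-virus mutants and 30.9 to 45.3 FPKM in untreated mutants, against 71.4 to 77.3 FPKM in wild type. Ank2, an ankyrin that anchors channels and transporters, was at 68.2 to 90.3 FPKM in shRNA hearts, 32.8 to 45.0 FPKM in control-virus mutants and 31.1 to 46.3 FPKM in untreated mutants, against 69.1 to 87.4 FPKM in wild type. Ank2 fell in control-virus mutants (-1.0, adjusted p = 0.0138) and untreated mutants (-1.06, adjusted p = 0.00422) against wild type, on either scale. Gem, a small GTPase that inhibits L-type channels, ran the other way, with 9.56 to 11.6 FPKM in control-virus mutants and 6.71 to 7.10 FPKM in untreated mutants, against 2.89 to 5.62 FPKM in wild type. It rose in control-virus mutants (1.35, adjusted p = 0.00611; aligned 1.49, adjusted p = 0.00518). Counting all 19, 8 rose and 0 fell in shRNA hearts against control-virus mutants (after alignment 4 and 2), among them Fgf13, Ank2, the caveolin Cav3 and the GTPase Rem1. Against untreated mutants 13 rose and 0 fell (after alignment 3 and 1). Beside these counts, 35.0% of all genes passed against control-virus mutants (after alignment 24.1%) and 54.8% against untreated mutants (after alignment 29.1%). Of all genes 9.50% passed in control-virus mutants against wild type (after alignment 24.3%) and 20.7% in untreated mutants (after alignment 25.8%). Of the 19, 1 rose and 1 fell in control-virus mutants (after alignment 4 and 1), and in untreated mutants 1 rose and 5 fell (after alignment 4 and 2). The 5 that fell as deposited were Ank2, Fgf13, Cav3, Rangrf and Jph2.

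Of 12 listed transcription factors of conduction tissue and of channel genes 10 were tested, and 4 fell in untreated mutants against wild type. In that comparison 20.7% of all genes passed (after alignment 25.8%). Tbx5, a T-box activator of conduction genes, was at 15.0 to 26.2 FPKM in shRNA hearts, 7.63 to 13.3 FPKM in control-virus mutants and 4.22 to 9.82 FPKM in untreated mutants, against 15.9 to 16.1 FPKM in wild type. The 4 fell on either scale and were Tbx5 (-1.16, adjusted p = 0.00912), Tbx2 (-0.96, adjusted p = 0.0125), Irx3 (-1.17, adjusted p = 0.0135) and Tbx3 (-1.06, adjusted p = 0.0289). The other 6 did not pass, and the median aligned difference of the 10 was -0.17, beside 0.0089 for all genes. In control-virus mutants against wild type 0 passed as deposited (9.50% of all genes) and 1 fell after alignment (24.3%). In shRNA hearts 5 rose against control-virus mutants (after alignment 0) and 8 against untreated mutants (after alignment 4), with no gene falling. Of all genes 35.0% passed against control-virus mutants (after alignment 24.1%) and 54.8% against untreated mutants (after alignment 29.1%). The Tbx3 values, 3.80 to 6.17 FPKM in untreated mutants against 8.88 to 14.4 FPKM in wild type, ran in the same direction as those of Hcn4. In shRNA replicate 8 Tbx3 was at 16.3 FPKM as deposited, the highest of the 13 libraries, while Hcn4 was at its lowest among the shRNA hearts. That library also had the top scale shift, 0.80 on the log2 scale. A link between Tbx3 and Hcn4 was not tested. Against wild type none of the 43 related genes tested passed by limma in shRNA hearts with all 4 libraries, on either scale, while 11 had an unadjusted p under 0.05 on each. Without replicate 8, 3 rose and 1 fell as deposited (1.68% of all genes passed), and 5 rose and 2 fell after alignment (5.66%). In control-virus against untreated mutants none passed on either scale, with 4 at an unadjusted p under 0.05 as deposited and 6 after alignment.

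**Figure D5:**
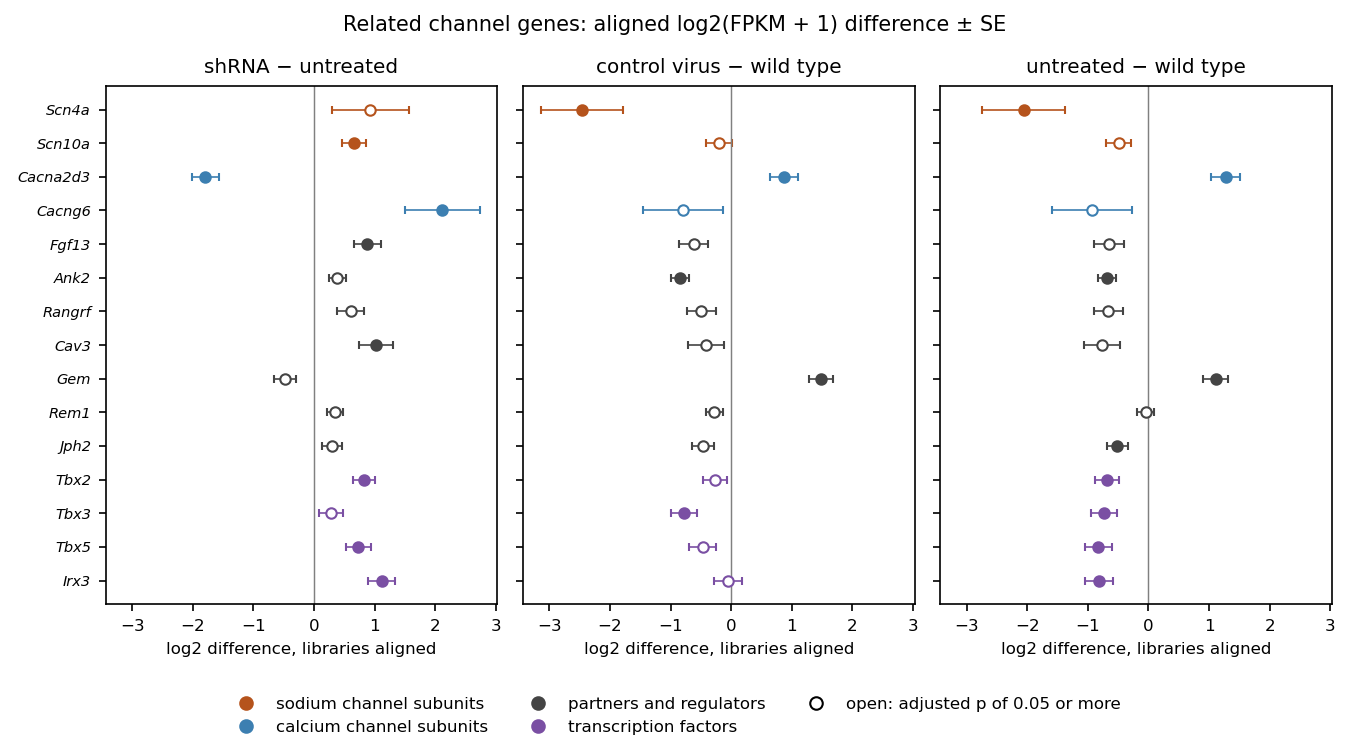
Aligned differences in log2(FPKM + 1) with standard errors from limma (horizontal axes) for 15 of the 43 related genes tested, those named in the text, by list (colour), in 3 comparisons; open symbols did not pass. Scn4a lies farthest left in both comparisons with wild type, and Cacna2d3 lies farthest left in shRNA against untreated hearts. Cacng6 and Scn10a passed the filter only through the shRNA hearts, and Cacna2d3 only through the mutant hearts without shRNA.

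Markers of other cell types are given for the whole lists. Skeletal muscle markers (11 genes, summed FPKM) were at 13.8 to 22.0 in shRNA replicates 5 to 7 and 40.2 in replicate 8. They were at 33.6 to 46.5 in control-virus mutants and 40.5 to 114.1 in untreated mutants, against 33.7 to 51.9 in wild type. Most of each sum was Mybpc2. The fast myosin Myh4 was listed at 0.0449 FPKM or less in all libraries and Myh1 at 0.0544 FPKM or less. Mylpf and Ryr1 were higher in wild type than in untreated mutants without overlap. Mylpf was at 0.608 to 0.933 FPKM in untreated mutants against 1.30 to 1.56 FPKM in wild type. Ryr1 was at 0.00806 to 0.0212 FPKM in untreated mutants against 0.0518 to 0.171 FPKM in wild type. Actn3 ran the other way with an overlap, at 0.120 to 0.323 FPKM in untreated mutants against 0 to 0.154 FPKM in wild type. Myh2, Tnnt3, Tnni2, Tnnc2, Pvalb and Mybpc2 also overlapped between these groups. The part of these markers was not tested. Conduction tissue markers (8 genes) summed to 68.1 to 130.0 FPKM in shRNA replicates 5 to 7 and 237.5 in replicate 8. They summed to 107.3 to 143.3 in control-virus mutants and 83.9 to 116.2 in untreated mutants, against 67.8 to 130.8 in wild type. Isl1 was at 0 in all 13 libraries, and Smoc2, at 42.2 to 193.5 FPKM, made up most of each sum. As deposited the ranges of this sum overlapped between all groups. After alignment they were 70.6 to 136.8 in shRNA hearts, 124.7 to 163.2 in control-virus mutants and 121.7 to 149.8 in untreated mutants, against 72.6 to 122.3 in wild type, so the control-virus mutants then lay above wild type without overlap. The part of these markers was not tested. Summed markers of working heart muscle (9 genes) were, like the 3 genes, lower in every mutant heart without shRNA than in wild type. They were at 98299 to 172308 FPKM in shRNA replicates 5 to 7 and 89779 in replicate 8. Control-virus mutants had 43207 to 64081 and untreated mutants 37880 to 56378, against 74612 to 96692 in wild type. Replicate 8 was thus within the wild-type range as deposited, unlike in the 3 genes. Of single markers, Actc1 and Myh6 overlapped wild type in both mutant groups without shRNA, and Ttn in untreated mutants. Myh6 was at 0 in control-virus replicate 3, untreated replicate 11 and wild-type replicate 2. After alignment the sums of the 9 genes were 51703 to 120193 in shRNA hearts, lowest in replicate 8. They were 54641 to 58537 in control-virus mutants and 52459 to 59502 in untreated mutants, against 79851 to 90983 in wild type. Endothelial markers (4 genes) were also lower in mutants without shRNA than in wild type. They summed to 166 to 231 FPKM in control-virus mutants and 178 to 231 in untreated mutants, against 300.1 to 337.7 in wild type. In shRNA replicates 5 to 7 they summed to 341 to 474 FPKM. Replicate 8, at 534 FPKM, was the highest of the 13 libraries, unlike in the 3 genes. After alignment the endothelial sums were 308 to 370 in shRNA hearts, lowest in replicate 8. They were 206 to 263 in control-virus mutants and 244 to 294 in untreated mutants, against 315 to 323 in wild type. The part of either list in the results was not tested. Atrial markers (7 genes, mostly Nppa, also made by stressed ventricle) summed to 1101 to 2368 FPKM in shRNA replicates 5 to 7 and 42846 in replicate 8, 18797 to 46780 in control-virus mutants and 17140 to 18566 in untreated mutants, against 1399 to 3580 in wild type. Fibroblast markers (6 genes) summed to 831 to 1591 FPKM in shRNA replicates 5 to 7 and 3676 in replicate 8. They summed to 1727 to 2673 in control-virus mutants and 1589 to 2138 in untreated mutants, against 787 to 1154 in wild type. Macrophage markers (5 of 6 genes found) summed to 162 to 325 FPKM in shRNA replicates 5 to 7 and 1142 in replicate 8. Their sums were 401 to 827 in control-virus mutants and 297 to 439 in untreated mutants, against 211 to 241 in wild type. Smooth muscle markers (5 genes) summed to 127 to 212 FPKM in shRNA replicates 5 to 7 and 1197 in replicate 8. They summed to 731 to 1103 in control-virus mutants and 413 to 718 in untreated mutants, against 237 to 407 in wild type. Neuronal markers (8 genes) summed to 14.0 to 21.1 FPKM in shRNA replicates 5 to 7 and 28.1 in replicate 8. They summed to 10.5 to 34.2 in control-virus mutants and 8.26 to 15.5 in untreated mutants, against 11.2 to 12.8 in wild type. Th and Snap25 were at 0 in all libraries. The part of these lists was not tested either.

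The genes whose aligned values ran most like each channel gene over the 13 libraries were taken as the 2 with the highest Pearson r, as a description. For Scn4b they were Scn4a (r = 0.97) and Hnrnpa2b1 (0.96), for Cacna1s Grb14 (0.99) and Tnfaip8 (0.99), and for Hcn4 Adam11 (0.99) and Acads (0.98). For Hcn2 they were Psap (0.94) and Cyhr1 (0.93), for Cacna1c Mybpc3 (0.93) and Maml1 (0.91), and for Cacnb2 Taf5l (0.93) and Mllt10 (0.93). For Cacna1g they were Snx29 (0.93) and Supt5 (0.87), and for Cacna1h Atp6v0c (0.90) and Cramp1l (0.88). Among the channel genes themselves, Cacna1s and Hcn4 had r = 0.96, Scn4b and Hcn4 0.93 and Scn4b and Cacna1s 0.84. Hcn2 had r = 0.81 with Hcn4, 0.75 with Cacna1s and 0.72 with Scn4b. Cacnb2 had r = 0.76 with Hcn4, 0.75 with Scn4b and 0.68 with Cacna1s, so Hcn2 and Cacnb2 in part moved with these genes. Cacna1g and Cacna1s had r = -0.41. All these points share the libraries and the group differences described above.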

How the data were processed

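PolyA libraries of 13 hearts were used (100-nt paired reads per the labels). The authors deposited FPKM values in 1 table with 1 column per library. Per the submitters' processing notes, FastQC 0.11.2, STAR 2.40, Cufflinks 2.2.1 and Cuffdiff were used with build mm9; the sources used here do not state their roles, the annotation, filters or scaling between libraries. Depth is therefore unknown, and no counting interval is given. Genes averaging at least 1 FPKM entered the test on log2(FPKM + 1) with limma 3.58.1 in R 4.3.3 (lmFit, eBayes with a trend, two-sided) in 1 fit over the 4 groups, and a gene passed when its adjusted p (Benjamini-Hochberg over all genes tested) was under 0.05. The alignment subtracts the median log2 shift of each library from its log2 FPKM, before the pseudocount is added. Libraries above 5 FPKM of Ddx3y were taken as male. The 8 genes, the gene lists and the marker lists were chosen with earlier results of these data known, so they are no independent support. Related genes named are those that passed in a comparison, up to 4 per list by smallest p, and some listed genes are not reported here. Alternatives were a pseudocount of 0.1, a mean of at least 5 FPKM, no filter, quantile normalization, the alignment, the compared groups alone, sex as a covariate, a replicate block and each library left out, and ratios within a library were added after the values had been seen. Promoter windows and overlaps are from RefSeq (GRCm38.p6); 6 of the 8 genes had a window. The test was checked on simulated data. The small RNA table was not used. Whether replicates share a litter is not stated, and p-values measure the spread between these hearts.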

Additional observations from a re-analysis of the deposited data

How the results depend on the processing

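The number of the 8 channel genes that passed moved by more than 1.5 times in some fits. In shRNA hearts against control-virus mutants it was 6, and 2 with quantile normalization, 1 after alignment, 3 with sex as a covariate and 3 to 6 on leaving out 1 library. Against untreated mutants it was 7, and 2 with quantile normalization, 3 after alignment and 4 after alignment without shRNA replicate 8. Against wild type it was 0, and 1 after alignment without shRNA replicate 8. In control-virus mutants against wild type it was 3, and 5 in a fit of those groups alone, 1 with sex as a covariate and 1 to 4 on leaving out 1 library. Untreated mutants against wild type, and the mutant groups against each other, stayed within 1.5 times in every fit run. A pseudocount of 0.1, a mean of at least 5 FPKM and no filter moved none of these counts by more than 1.5 times. Besides calls already described, no filter ended those of Scn4b in shRNA hearts against control-virus mutants (adjusted p = 0.0517) and of Cacna1h against untreated mutants (0.116). A fit of the compared groups alone ended those of Hcn2 (0.0943) and Cacnb2 (0.0549) against control-virus mutants, and sex as a covariate that of Hcn2 (0.0517). The sex covariate without shRNA replicate 8 ended those of Cacna1c (0.130) and Cacnb2 (0.346).

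The sign turned in log2 differences that mostly had not passed, and the cause was not tested. Cacna1g was -0.32 (quantile), -0.37 (aligned) and -0.38 (aligned without replicate 8) in shRNA hearts against control-virus mutants, -0.36, -0.41 and -0.41 against untreated mutants, and -0.30, -0.31 and -0.32 against wild type. In the same 3 fits it was 0.018, 0.059 and 0.059 in control-virus mutants and 0.059, 0.095 and 0.094 in untreated mutants against wild type, and -0.041, -0.036 and -0.035 in control-virus against untreated mutants (-0.045 with sex as a covariate). In shRNA hearts against wild type, Cacnb2 was -0.24, -0.23 and -0.23 and Hcn2 -0.26, -0.25 and -0.080 in these fits. With the sex covariate and without replicate 8, Cacna1g was there -0.050, Cacnb2 -0.048 and Hcn4 0.15. Cacna1c was -0.081 against untreated mutants with quantile normalization, and 0.096, 0.012 and 0.011 in untreated mutants against wild type in the 3 fits. Cacna1h was -0.15 in control-virus mutants against wild type with quantile normalization and 0.0087 against untreated mutants with the sex covariate. Between the mutant groups without shRNA, Cacnb2 was -0.068, -0.043 and -0.042 in the 3 fits and Cacna1s -0.024 with quantile normalization.

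Leaving out 1 library at a time gave ranges that crossed 0. For shRNA hearts against wild type they were -0.12 to 0.18 for Cacna1g, -0.012 to 0.25 for Cacnb2, -0.061 to 0.24 for Hcn2 and -0.40 to 0.15 for Hcn4, and against control-virus mutants -0.031 to 0.27 for Cacna1g. In control-virus mutants against wild type they were -0.17 to 0.0072 for Cacna1g and -0.55 to 0.62 for Cacna1h, and in untreated mutants -0.18 to 0.81 for Cacna1h. Between control-virus and untreated mutants they were -0.057 to 0.35 for Cacna1g, -0.74 to 0.23 for Cacna1h and -0.090 to 0.47 for Scn4b.

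Control-virus mutants and wild type share replicate numbers 2 and 3, but same-numbered libraries did not deviate together (r = -0.20 and -0.11), so the numbers were not taken as pairs. With the replicate block 3 channel genes passed, as without it. The unknown depth limits what can be said of low values, those of Cacna1h and, in mutants without shRNA, of Cacna1s and Hcn4.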
